A study of Mus musculus with 48 samples.

Results

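Matrix metalloproteinases (MMPs), ADAMTS proteases and tissue inhibitors of metalloproteinases (TIMPs) were examined in 48 mouse mammary tumors. These were the 44 genes, of 19938 measured, whose symbol was Mmp, Adamts or Timp with a number and at most 1 letter. They comprised 22 Mmp, 18 Adamts and 4 Timp genes. The symbols alone decided which genes were members, but the families were chosen with earlier results of these data known. A gene that the array covers with several transcript clusters was read from the brightest of them on average. Such clusters numbered 68 for the 44 genes, and 41 genes had 1.

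MMPs are zinc proteases made as inactive precursors, and between them they cut collagens, laminins, fibronectin, growth factors and other proteases. Most are secreted, while the membrane-type MMPs stay on the cell surface. ADAMTS proteases are secreted relatives that cut proteoglycans such as aggrecan and versican or trim procollagens, and TIMPs bind the active site of these enzymes and block it. In mammary tumors many of these genes are used by fibroblasts, macrophages, neutrophils and endothelium as well as by tumor cells.

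Each tumor had grown from cells placed in the fourth mammary fat pad of an immunocompetent mouse of the same strain, was taken at 0.5 to 1.0 cm and had an array of its own. There were 12 models with 4 independent tumors each. Of these, TS/A-E1, F311, EMT-6, D2A1 and 4T1 are Balb/c lines that arose from spontaneous tumors, whereas Met-1, MVT-1, M6, HRM-1 and 6DT1 are FVB/N lines from tumors of engineered mice. E0771 is a C57Bl/6 line of spontaneous origin and R3T a 129Sv line of engineered origin. MVT-1 goes back to a mouse carrying Myc and VEGF under the mammary MMTV promoter, and no group was treated. The labels give neither the transgenes of the other engineered lines nor the age of the mice. The study's methods name young adult females as hosts of its own tumors, and the arrays came from a separate project. Each model is a single implanted line, so its 4 tumors share their tumor cells and differ in host and growth.

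Values are log2 signals as deposited, so a difference of 1 is a 2-fold difference on the array. They ran from 3.49 to 14.12 over all clusters with array medians of 6.76 to 6.99. The SE of a model's difference from the others rests on a variance pooled over the 12 models, so each gene has the same SE in every model. It is too small for a model whose 4 tumors vary more than those of the other models. Signals of 1027 olfactory receptor genes, which are not expected in a tumor, had a 95th percentile of 6.03 and serve as a mark of the signal without transcript. The luminal keratin Krt8 was high in every model (means of 11.01 in D2A1 to 13.33 in HRM-1), whereas Epcam, the epithelial adhesion molecule, ran from 6.31 in D2A1 to 11.58 in M6. Scores of cell types are means over a list of log2 signal minus each gene's mean over the 48 tumors, and scores of models are given on this scale. Scores of single tumors are given relative to the median tumor. The latter exceeded 2.5 for adipocyte or B cell genes in 9 tumors. These were 4T1 replicate 3, 6DT1 replicates 2 and 3, E0771 replicate 1, EMT-6 replicate 3, F311 replicates 1 and 2, Met-1 replicate 2 and R3T replicate 2, referred to as rich in host tissue. Without these 9 tumors 111 of the 128 calls of a gene in a model described here kept their direction and passed, and 12 of the 17 that did not were calls in 6DT1. The skeletal muscle score, which did not enter that definition, exceeded 2.5 in E0771 replicate 3 (4.63) and M6 replicate 3 (3.92). In such pieces fewer cells of a type and less RNA per cell cannot be told apart.

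Mmp13, Mmp12, Mmp1b, Mmp3, Mmp1a, Mmp10, Mmp8, Mmp27, Mmp20 and Mmp7 lie side by side on chromosome 9, in this order, between Dcun1d5 and Tmem123. The start sites of 30 members are covered by the RefSeq promoter windows of mouse build GRCm38.p6, which hold 250 bases before and 50 after the start. The AP-1 motif (TGANTCA, both strands) was found in the windows of 8 members, all of this cluster, and in 7.8% of all 32851 windows. Mmp8 and Mmp27 were the cluster members without it. The last 120 bases before the start are shown for the 4 cluster genes with the widest differences among models and for Mmp1a, because their tumors are compared below, with the AP-1 letters in capitals.
Mmp13, chr9:7272394-7272513, plus strand: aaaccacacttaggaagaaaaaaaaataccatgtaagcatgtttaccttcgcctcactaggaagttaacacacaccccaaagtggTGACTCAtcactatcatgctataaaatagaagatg
Mmp12, chr9:7347254-7347373, plus strand: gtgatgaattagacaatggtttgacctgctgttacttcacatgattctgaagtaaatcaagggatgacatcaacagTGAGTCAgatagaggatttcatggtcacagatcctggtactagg
Mmp3, chr9:7445702-7445821, plus strand: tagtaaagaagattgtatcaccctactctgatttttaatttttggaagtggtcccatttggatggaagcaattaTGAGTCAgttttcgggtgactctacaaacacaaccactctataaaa
Mmp1a, chr9:7464021-7464140, plus strand: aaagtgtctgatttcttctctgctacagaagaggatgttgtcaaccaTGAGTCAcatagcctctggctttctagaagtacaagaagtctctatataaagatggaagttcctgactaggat
Mmp10, chr9:7502222-7502341, plus strand: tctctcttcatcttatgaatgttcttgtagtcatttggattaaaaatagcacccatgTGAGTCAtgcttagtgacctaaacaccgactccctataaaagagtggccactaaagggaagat
The capitals began 35 bases before the start in Mmp13, 44 in Mmp12, 46 in Mmp3, 73 in Mmp1a and 63 in Mmp10. Mmp12, Mmp3, Mmp1a and Mmp10 shared the same letters there and Mmp13 had another middle base. A TATA box, TATAAA, began 7 bases before the start in Mmp3, 16 in Mmp13, 28 in Mmp1a and 29 in Mmp10. It was not in the printed stretch of Mmp12, but the full window of that start held 1 after the start. Another window of Mmp12, chr9:7344147-7344446, held neither an AP-1 match nor a TATA box. The TATA box on the gene strand was present in 8.3% of all windows, and the ETS motif AGGAAG, on either strand, in 35.4% of all windows and in 15 of the 30 members with a window. These are letter matches, not measured binding sites.

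Most of these genes differed from model to model. In limma's F-test over the 12 models, 34 of the 44 (77.3%) passed at a Benjamini-Hochberg adjusted p of 0.05, against 70.4% of all genes, so the share was near the background. The differences were larger in size, as a description: the median range of the 12 model means was 1.39 for the members and 0.68 for all genes. These medians are not at like signal levels. All genes include the 1027 olfactory receptor genes, whereas only 4 of the 44 members had no model mean above the olfactory receptor mark. The part of signal level in the larger range was not tested. Models made up a median of 53.2% of the variance of a member and 62.4% of that of any gene, so the tumors within a model also varied widely. Of the MMPs 17 of 22 passed, of the ADAMTS genes 14 of 18 and of the TIMPs 3 of 4. The 10 that did not pass were Mmp8, Mmp20, Mmp21, Mmp23, Mmp24, Adamts13, Adamts16, Adamts17, Adamts19 and Timp4. The signal of Mmp1b, Mmp8, Mmp20 and Mmp21 was not above the olfactory receptor mark in any model mean, so no level is claimed for them. Adamts18 passed narrowly (adjusted p = 0.0440) and no longer did after quantile normalization (0.0564) or, for instance, without 6DT1 replicate 2 (0.148). Mmp27 (0.0286) was lost without 6DT1 replicate 3 (0.0651).

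**Figure D1:**
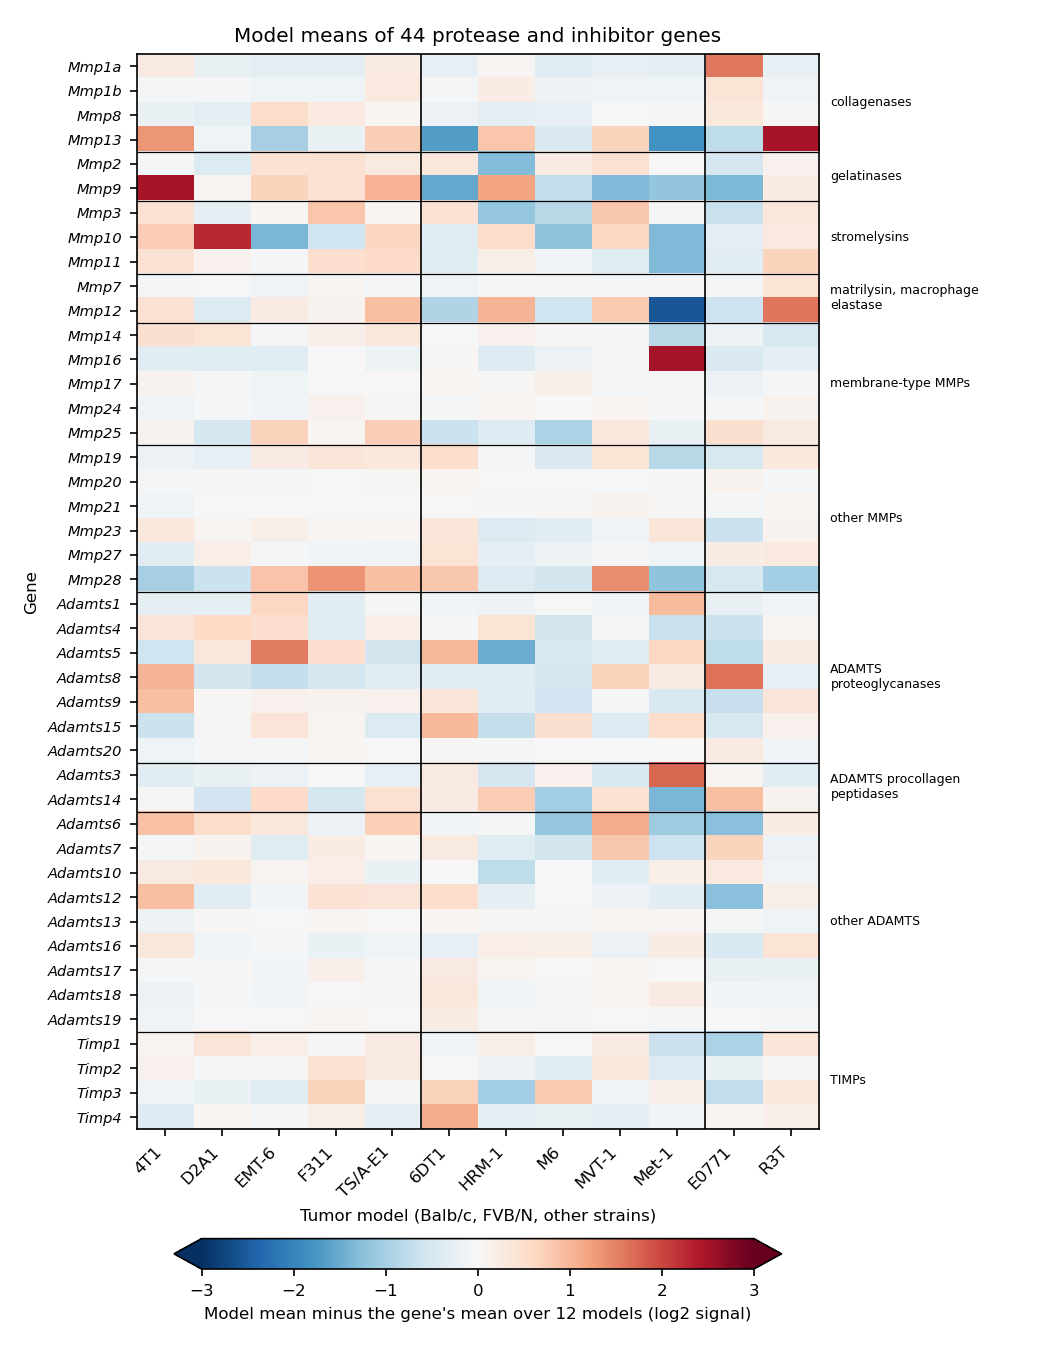
Color shows the mean log2 signal of a model (columns) minus the mean over the 12 models for each of the 44 genes (rows, grouped by role), red for higher and blue for lower, n = 4 tumors per model. The deepest reds are Mmp9 in 4T1, Mmp13 in R3T, Mmp10 in D2A1 and Mmp16 in Met-1, and the deepest blue is Mmp12 in Met-1.

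Among the gelatinases, which cut denatured collagen and basement membrane collagen IV, Mmp9 was highest in 4T1. Its signals there were 12.12, 12.66, 11.98 and 11.87. In HRM-1 they were 11.16, 10.81, 10.75 and 10.77, in TS/A-E1 10.18, 11.38, 10.74 and 10.64, and in EMT-6 10.30, 9.04, 10.32 and 11.72. Every 4T1 tumor lay above every tumor of the other models. F311 tumors had 7.78, 10.81, 11.09 and 10.88, R3T 9.71, 9.87, 10.70 and 9.35, and D2A1 10.66, 9.12, 9.89 and 9.36. M6 fell into low and high tumors, with 7.78, 7.93, 10.07 and 9.99. The skeletal muscle scores of these tumors were 0.53, -0.05, 3.92 and 1.89, and their part in the split was not tested. The low end was held by Met-1 with 7.95, 7.98, 9.25 and 8.84, MVT-1 with 8.54, 8.26, 8.45 and 8.24, E0771 with 7.83, 8.40, 8.53 and 8.60, and 6DT1 with 8.53, 7.36, 7.80 and 8.94. The means spanned 4.00, a 16.0-fold difference, from 12.16 ± 0.35 in 4T1 to 8.16 ± 0.71 in 6DT1 (SD, n = 4). Against the other 11 models 4T1 was higher by 2.70 (SE 0.40, adjusted p = 2.24e-06, limma), whereas E0771 fell by 1.47 (adjusted p = 0.0033) and MVT-1 by 1.43 (adjusted p = 0.00882). 6DT1 fell by 1.67 (adjusted p = 0.00138), but by 1.21 with an adjusted p of 0.0518 without the tumors rich in host tissue. Of the 66 pairs of models 33 differed in Mmp9. The step from 4T1 to HRM-1 missed the threshold (adjusted p = 0.0887), and so did each other step between neighbors in the order. F311 replicate 1, rich in host tissue, lay well below the rest of its model.

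Mmp2, the gelatinase typical of fibroblasts, varied less, from 11.79 ± 0.24 in F311 to 10.03 ± 0.55 in HRM-1 (SD, n = 4). HRM-1 tumors had 9.95, 9.51, 10.81 and 9.85, against 9.92 to 12.37 with a median of 11.55 in the 44 others. HRM-1 fell by 1.42 (SE 0.27, adjusted p = 9.96e-05), and the signals of its replicates 2 and 4 were under those of all 44 others.

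Mmp13, the main interstitial collagenase of the mouse, was highest in R3T, with signals of 12.34, 11.39, 12.16 and 12.77. It was next highest in 4T1 (10.52, 11.60, 11.53 and 10.38), HRM-1 (10.80, 10.68, 10.42 and 10.18) and TS/A-E1 (10.93, 9.59, 10.41 and 10.78). The lowest R3T tumor was its piece rich in host tissue, and it overlapped the upper 4T1 tumors. MVT-1 tumors had 10.74, 10.40, 10.54 and 9.71, D2A1 10.29, 9.31, 9.11 and 9.47, and M6 9.26, 8.23, 9.38 and 10.13. E0771 tumors had 8.92, 8.53, 9.21 and 8.99, and EMT-6 8.35, 8.23, 8.13 and 9.99. In 6DT1, F311 and Met-1 the tumors disagreed among themselves. In 6DT1 the signals were 10.22, 5.76, 5.67 and 10.36, in F311 5.86, 10.42, 10.16 and 11.51, and in Met-1 7.18, 5.46, 9.23 and 9.59. The 4 signals below the olfactory receptor mark all came from tumors rich in host tissue: 6DT1 replicates 2 and 3, F311 replicate 1 and Met-1 replicate 2. R3T was higher than the other models by 2.71 (SE 0.66, adjusted p = 0.00179, limma). The low mean of 6DT1 (-1.83) rested on those pieces, since its 2 other tumors gave a difference of 0.23 (adjusted p = 0.748), and the call was lost without replicate 2 (0.286) or replicate 3 (0.276) alone.

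Mmp12, the macrophage elastase, had its low end in Met-1, with signals of 6.91, 6.44, 6.74 and 7.99. The other models reached such values only in 6DT1 (9.85, 7.35, 6.37 and 11.26) and F311 (6.31, 10.07, 10.63 and 11.80), again in tumors rich in host tissue. R3T (11.22, 10.96, 11.49 and 11.11), HRM-1 (10.81, 10.81, 10.51 and 10.35), TS/A-E1 (11.14, 10.25, 10.24 and 10.36) and MVT-1 (10.69, 10.52, 8.98 and 11.30) made up the high end. Between them lay 4T1 (9.83, 10.66, 10.06 and 9.64), EMT-6 (9.77, 9.66, 9.70 and 10.24), D2A1 (10.34, 9.30, 8.17 and 8.94), M6 (8.91, 8.55, 8.44 and 10.11) and E0771 (9.28, 8.44, 9.38 and 8.85). Met-1 had a mean of 7.02 ± 0.68 and R3T one of 11.19 ± 0.22 (SD, n = 4). Relative to the other models Met-1 fell by 2.81 (SE 0.55, adjusted p = 9.99e-05), and its step to 6DT1, the next in the order, had an adjusted p of 0.0832. The macrophage score of Met-1, over 10 genes, was -0.16, against -0.96 in M6, the lowest, and its part in the Mmp12 signal was not tested.

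Mmp10, the stromelysin 2 gene, was highest in D2A1, with signals of 11.38, 10.37, 10.85 and 10.66. In 4T1 they were 8.67, 10.83, 9.22 and 8.53, in TS/A-E1 9.56, 9.35, 8.88 and 8.95, and in MVT-1 10.05, 8.64, 8.65 and 9.37. Only 1 tumor elsewhere, 4T1 replicate 2, reached the D2A1 range. HRM-1 had 9.28, 9.03, 9.37 and 8.78, R3T 9.35, 8.22, 8.86 and 8.92, and E0771 7.88, 8.72, 8.0 and 8.56. 6DT1 split as for Mmp13, with 9.71, 6.79, 6.48 and 9.77, and F311 had 6.78, 7.61, 7.93 and 9.47. The low end held M6 with 7.11, 6.81, 7.16 and 8.30, Met-1 with 6.62, 6.52, 7.49 and 8.27, and EMT-6 with 6.53, 7.11, 6.97 and 8.13. D2A1 was higher than the other models by 2.47 (SE 0.42, adjusted p = 1.59e-05) and differed from 4T1, the next, with an adjusted p of 0.0485.

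Mmp3, stromelysin 1, which cuts proteoglycans and fibronectin and activates other MMPs, had a different order. It was highest in F311 (11.28, 9.15, 9.66 and 10.27) and MVT-1 (10.43, 9.66, 10.22 and 9.99) and lowest in HRM-1 (8.11, 7.44, 9.02 and 7.90). M6 (7.83, 8.40, 8.26 and 9.28) and E0771 (8.79, 8.79, 8.16 and 8.67) were next to HRM-1 at the low end. HRM-1, which was near the top for Mmp12, fell by 1.26 for Mmp3 (SE 0.30, adjusted p = 0.0014). The other models overlapped throughout: 6DT1 had 9.61, 10.16, 10.08 and 8.98, 4T1 9.68, 9.94, 9.92 and 9.22, and R3T 9.42, 10.60, 9.24 and 9.14. TS/A-E1 had 9.65, 9.63, 8.88 and 9.15, EMT-6 8.79, 8.69, 9.95 and 9.86, Met-1 9.22, 9.21, 9.74 and 8.78, and D2A1 9.69, 9.46, 7.87 and 8.96. The pieces rich in host tissue that were lowest for Mmp13 and Mmp10 in 6DT1 and F311 were the highest of their models for Mmp3.

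**Figure D2:**
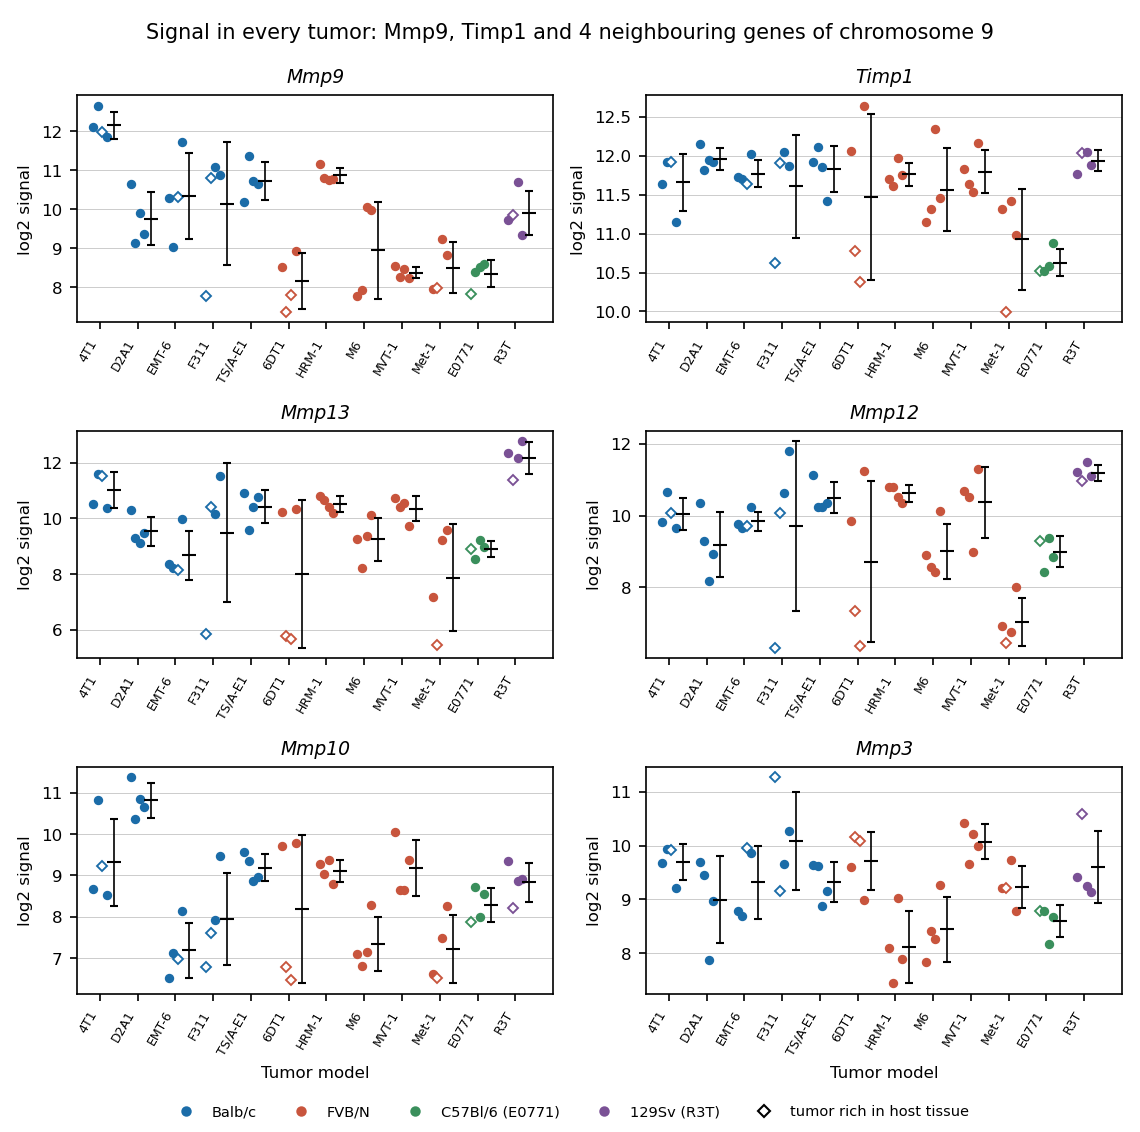
Each point is the log2 signal (vertical axes, not starting at 0) of 1 tumor, 4 per model along the horizontal axes, and the black bars are the model mean and SD. Open diamonds are the tumors rich in host tissue: replicates 2 and 3 of 6DT1 and replicate 1 of F311 are the low points of Mmp13, Mmp12 and Mmp10 in their models and the high points of Mmp3, while replicate 2 of F311, also a diamond, is not, and all 4 points of 4T1 lie at the top for Mmp9.

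These 4 neighbors on chromosome 9 were compared pair by pair within models, over the deviations of the 48 tumors from their model means, a comparison chosen after their values were seen. Mmp13 and Mmp12 rose and fell together (Pearson's r = 0.83, Spearman's rho = 0.72, permutation p = 1e-05 for both, the smallest that 100000 resamples can give, adjusted over 6 pairs 6e-05). The same held for Mmp13 and Mmp10 (r = 0.80, rho = 0.71, permutation p = 2e-05 and 0.0001, adjusted 6e-05 and 0.00028) and for Mmp12 and Mmp10 (r = 0.77, rho = 0.65, permutation p = 3e-05 and 0.00014, adjusted 6e-05 and 0.00028). Without the 2 farthest tumors r was 0.74, 0.76 and 0.69. Mmp3 did not pass with any of them, at r = -0.27 with Mmp13 (rho = -0.13, permutation p = 0.171 and 0.438, adjusted 0.257 and 0.657), -0.23 with Mmp12 (rho = -0.093, permutation p = 0.279 and 0.582, adjusted 0.335 and 0.698) and -0.027 with Mmp10 (rho = 0.051, permutation p = 0.878 and 0.760, adjusted 0.878 and 0.760). In the 39 tumors left without those rich in host tissue the relations were more alike. There r was 0.50 for Mmp13 and Mmp12 (permutation p = 0.00625, adjusted 0.00938), 0.69 for Mmp13 and Mmp10 (p = 0.00088 by permutation, adjusted 0.00333) and 0.59 for Mmp12 and Mmp10 (permutation p = 0.00111, adjusted 0.00333). Mmp3 then gave r = 0.49 with Mmp10 (permutation p = 0.00461, adjusted 0.00922), but 0.35 with Mmp13 (adjusted permutation p = 0.0926) and 0.30 with Mmp12 (adjusted permutation p = 0.141).

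Mmp1a, a further collagenase of the cluster, was named after its values were seen. It was above the olfactory receptor mark in E0771 alone, with signals of 6.54, 7.53, 6.32 and 7.18. In 4T1 (5.70, 5.45, 5.82 and 5.33), in TS/A-E1 (5.33, 5.74, 5.76 and 5.33) and in the 36 tumors of the other models (4.87 to 5.49, median 5.04) it stayed below. E0771 was higher by 1.73 (SE 0.10, adjusted p = 4.3e-17) and differed from 4T1, the next, with an adjusted p of 3.69e-10. The SD of Mmp1a was 0.56 in E0771 and 0.03 to 0.25 in the other models. The pooled SE and these p-values therefore overstate the precision for E0771. Mmp7, matrilysin, was low everywhere, from 5.62 ± 0.08 in EMT-6 to 6.14 ± 0.43 in R3T (SD, n = 4), where it was higher by 0.45 (adjusted p = 1.82e-05). R3T replicates 1 and 4 had 6.14 and 6.75, whereas replicates 2 and 3, both 5.83, and every other model mean were below the olfactory receptor mark. Mmp8, the neutrophil collagenase, had at most 6.01 ± 0.69 in EMT-6 and did not pass the F-test (adjusted p = 0.0801).

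Mmp11, stromelysin 3, a fibroblast gene of breast cancer stroma, was lowest in Met-1, at 7.76, 7.91, 7.52 and 7.68. R3T tumors had 9.78, 8.90, 9.77 and 10.44 and F311 tumors 7.99, 9.80, 10.09 and 10.31, and the 36 tumors of the other 9 models 8.02 to 10.10 with a median of 9.11. All 4 Met-1 tumors thus lay below every other tumor. Met-1 fell by 1.45 (SE 0.23, adjusted p = 3.8e-06) and differed from 6DT1, the next, with an adjusted p of 0.0172. The fibroblast score of Met-1, over 12 genes, was -0.06, where the models ran from -0.54 to 0.41. Its part in the Mmp11 signal was not tested.

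Of the membrane-type MMPs, Mmp14, the main activator of pro-Mmp2, was high in all tumors. It ran from 11.78 ± 0.07 in 4T1 (11.82, 11.86, 11.71 and 11.75) to 10.47 ± 0.29 in Met-1 (10.30, 10.45, 10.89 and 10.24). The 40 tumors of the other models had 10.67 to 11.95, so that 3 of the Met-1 tumors were below all of them. 4T1 was higher by 0.53 (SE 0.11, adjusted p = 0.000164) and Met-1 fell by 0.90 (SE 0.11, adjusted p = 8.86e-09). Mmp16 behaved in the opposite way and was raised in Met-1 alone, with 9.33, 6.74, 9.33 and 8.81. In 6DT1 it had 5.54, 6.58, 6.50 and 5.77, and in the other 40 tumors 5.50 to 6.23. Met-1 was higher by 2.73 (SE 0.21, adjusted p = 2.19e-13) and differed from 6DT1 with an adjusted p of 1.17e-08. The SD of Mmp16 was 1.23 in Met-1 and 0.04 to 0.52 in the other models. The pooled SE and these p-values therefore overstate the precision for Met-1. The tumor rich in host tissue, replicate 2, was the lowest of Met-1 and still above every tumor of the other models. Mmp25, a membrane-anchored MMP of leukocytes, ran from 7.96 ± 0.44 in TS/A-E1 to 6.27 ± 0.22 in M6 (SD, n = 4), where it fell by 1.04 (adjusted p = 4.13e-05). Mmp17 and Mmp24 spanned 0.34 and 0.26.

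Mmp28, epilysin, an MMP of epithelia, split the models into high and low. Its 20 signals in MVT-1, F311, TS/A-E1, EMT-6 and 6DT1 ran from 8.27 to 10.06 and the 28 in the other 7 models from 6.63 to 8.10. The groups were drawn from these same signals, so their lack of overlap and the step between them are a description. How many of all genes split in this way was not counted. The lowest of the high tumors was F311 replicate 1 (8.27, against 9.87, 9.90 and 10.06 in the rest of F311). MVT-1 had the highest mean, 9.56 ± 0.18, and Met-1 the lowest, 6.97 ± 0.27 (SD, n = 4). The step between the groups, from 6DT1 to HRM-1, had an adjusted p of 0.000145, and no other step between neighbors passed. Models made up 90.6% of the variance, and 38 of the 66 pairs differed. MVT-1 was higher than the other models by 1.51 (SE 0.18, adjusted p = 3.57e-08) and F311 by 1.47 (SE 0.18, adjusted p = 1.34e-07), and Met-1 fell by 1.31 (adjusted p = 1.87e-07). Mmp19 was lowest in Met-1 (8.21 ± 0.34, SD, n = 4), which fell by 0.91 (adjusted p = 0.00239), and Mmp23 and Mmp27 spanned 1.01 and 0.73.

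Among the ADAMTS proteoglycanases Adamts8 marked E0771, with signals of 8.34, 9.31, 9.05 and 9.11. In 4T1 it had 8.35, 8.50, 7.86 and 8.66, in MVT-1 8.34, 7.99, 8.15 and 7.48, and in Met-1 7.75, 7.20, 7.82 and 7.49. The 32 tumors of the other 8 models had 6.52 to 7.23. E0771 was higher than the other models by 1.79 (SE 0.12, adjusted p = 1.02e-14), 4T1 by 1.12 (SE 0.12, adjusted p = 6.72e-09) and MVT-1 by 0.73 (SE 0.12, adjusted p = 2.86e-05). E0771 also differed from 4T1 (adjusted p = 0.00379), with 1 tumor in the 4T1 range, replicate 1, the piece of E0771 rich in host tissue.

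Adamts5, the main aggrecanase of mouse cartilage, was highest in EMT-6 (9.72, 9.88, 10.34 and 9.83) and lowest in HRM-1 (6.46, 6.20, 7.96 and 6.92). In 6DT1 it had 7.35, 10.27, 10.73 and 9.09, with both pieces rich in host tissue on top, and the remaining 36 tumors had 6.61 to 10.37 with a median of 8.29. EMT-6 was higher by 1.70 (SE 0.44, adjusted p = 0.00334) and HRM-1 fell by 1.63 (SE 0.44, adjusted p = 0.00463). Adamts9 was highest in 4T1 (9.86 ± 0.07, higher by 0.98, adjusted p = 1.23e-05) and lowest in E0771 (8.27 ± 0.48, SD, n = 4, -0.76, adjusted p = 0.000225). Each of its 6 transcript clusters was highest in 4T1. Adamts1 was highest in Met-1 (10.57 ± 0.78, higher by 1.03, adjusted p = 0.000101). Adamts4 ran from 10.11 ± 0.38 in D2A1 to 8.85 ± 0.85 in Met-1, and Adamts15 from 8.16 ± 1.01 in 6DT1 to 6.46 ± 0.30 in HRM-1 (SD, n = 4). The 6DT1 call for Adamts15 (1.06, adjusted p = 0.00748) was lost without the tumors rich in host tissue (0.36, adjusted p = 0.362) and without replicate 2 (0.111) or replicate 3 (0.0748) alone. Adamts20 spanned 0.38.

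The procollagen peptidases, which trim the ends of fibrillar procollagens, moved in opposite directions in Met-1. Adamts3 was raised there, with 9.71, 8.42, 9.54 and 9.65, against 7.12, 8.74, 8.44 and 7.19 in 6DT1 and 7.03 to 8.54 in the other 40 tumors. Its mean of 9.33 ± 0.61 was higher by 1.88 (SE 0.20, adjusted p = 1.16e-09) and differed from that of 6DT1 with an adjusted p of 6.8e-05. All 16 transcript clusters of Adamts3 were highest in Met-1, and their model means spanned 1.08 to 3.86. Adamts14 was lowest in Met-1, with 7.34, 7.31, 7.47 and 7.32, next to M6 with 7.39, 7.63, 8.24 and 7.50. It was highest in E0771 (9.30, 9.75, 9.78 and 9.74) and HRM-1 (9.42, 9.62, 9.56 and 9.36), and the other 32 tumors had 7.72 to 9.84. Met-1 fell by 1.50 (SE 0.18, adjusted p = 8.97e-09) and M6 by 1.14 (SE 0.18, adjusted p = 1.25e-06), and E0771 was higher by 0.99 (SE 0.18, adjusted p = 1.64e-05). Adamts2 is not analysed here.

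**Figure D3:**
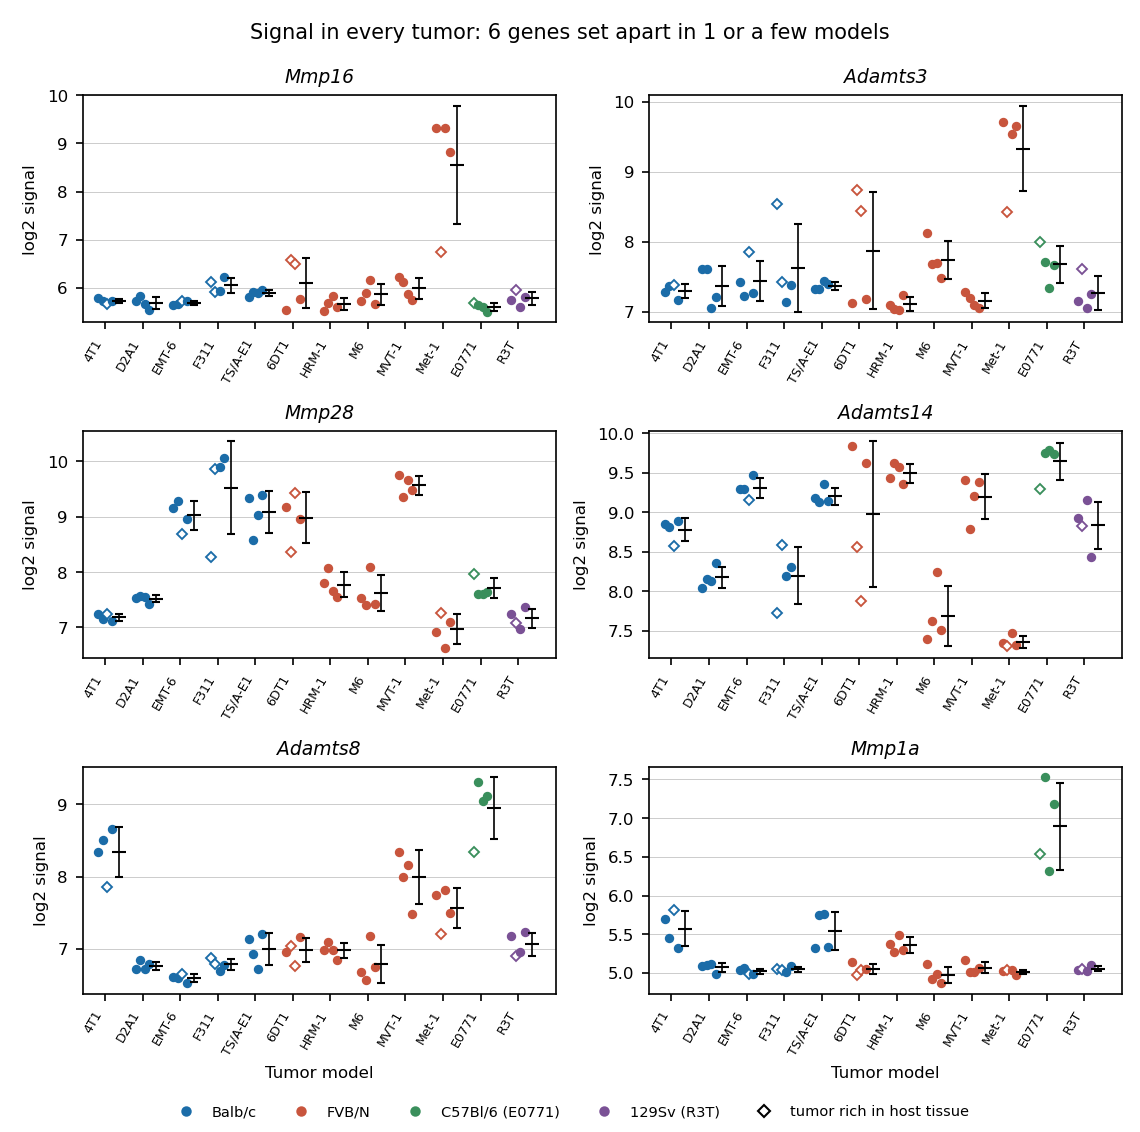
Each point is the log2 signal (vertical axes, not starting at 0) of 1 tumor, 4 per model along the horizontal axes, with the model mean and SD in black and tumors rich in host tissue as open diamonds. Mmp16 and Adamts3 stand out in Met-1, Adamts8 and Mmp1a in E0771, and for Mmp28 the 20 tumors of 5 models lie above the 28 of the other 7.

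Of the other ADAMTS genes, Adamts6 ran from 9.14 ± 0.15 in MVT-1 to 6.77 ± 0.12 in E0771 (SD, n = 4). MVT-1 tumors had 8.99, 9.21, 9.32 and 9.04, E0771 tumors 6.74, 6.62, 6.90 and 6.80, and M6 tumors 6.30, 6.10, 8.14 and 6.96. 6DT1 split into 9.06 and 9.37 in replicates 1 and 4 and 7.10 and 6.28 in the pieces rich in host tissue, and the remaining 32 tumors had 6.42 to 9.12. E0771 fell by 1.37 (SE 0.29, adjusted p = 0.000153), M6 fell by 1.26 (SE 0.29, adjusted p = 0.000437), and MVT-1 was higher by 1.21 (SE 0.29, adjusted p = 0.00177). Adamts12 showed the reverse split in 6DT1, at 7.88 and 9.02 in replicates 1 and 4 and 10.51 and 10.84 in replicates 2 and 3. In 4T1 it had 9.96, 10.19, 10.20 and 9.34, in E0771 9.39, 6.92, 7.54 and 7.26, and in the other 36 tumors 7.94 to 10.09. E0771 fell by 1.36 (SE 0.33, adjusted p = 0.00103), and its only tumor within the range of the others was the piece rich in host tissue. Adamts7 was highest in MVT-1 (9.57 ± 0.20, higher by 0.87, adjusted p = 2.11e-05) and Adamts10 lowest in HRM-1 (8.04 ± 0.15, SD, n = 4, -0.83, adjusted p = 0.000485). Adamts13, Adamts17, Adamts18 and Adamts19 spanned 0.24 to 0.53, and Adamts16 spanned 0.87.

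The inhibitors spanned 0.84 (Timp2) to 1.81 (Timp3) between their highest and lowest models. Timp1 was even over most models: 4T1 tumors had 11.64, 11.92, 11.92 and 11.15, D2A1 12.15, 11.81, 11.95 and 11.92, and EMT-6 11.72, 11.70, 11.63 and 12.02. TS/A-E1 had 11.92, 12.12, 11.85 and 11.42, HRM-1 11.71, 11.61, 11.97 and 11.75, and MVT-1 11.83, 11.64, 11.54 and 12.16. R3T had 11.77, 12.03, 12.05 and 11.89, and M6 11.15, 11.32, 12.34 and 11.45. E0771 was low, at 10.52, 10.52, 10.58 and 10.88. It fell by 1.03 (SE 0.24, adjusted p = 0.000612). In F311 (10.62, 11.90, 12.04 and 11.86), 6DT1 (12.07, 10.78, 10.38 and 12.64) and Met-1 (11.31, 9.99, 11.42 and 10.99) the low tumors were again pieces rich in host tissue. The lower mean of Met-1 (-0.71) was lost without its replicate 2 (-0.39, adjusted p = 0.266) and kept when all tumors rich in host tissue were left out (-0.50, adjusted p = 0.0145).

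Timp2 ran from 12.22 ± 0.40 in F311 (higher by 0.47, adjusted p = 0.000247) to 11.37 ± 0.08 in Met-1 (-0.45, adjusted p = 0.000167). Timp3, the inhibitor bound to matrix, was lowest in HRM-1 (9.16, 9.17, 9.87 and 10.32) and E0771 (10.95, 9.39, 9.57 and 9.70) and highest in M6 (11.19, 10.85, 11.84 and 11.87). HRM-1 fell by 1.11 (SE 0.21, adjusted p = 8.28e-05) and E0771 by 0.82 (adjusted p = 0.00169), and M6 was higher by 0.86 (SE 0.21, adjusted p = 0.000951). The other 36 tumors had 9.78 to 11.55. Timp4 was near or below the olfactory receptor mark in most tumors and high in a few: 7.29 and 9.15 in 6DT1 replicates 2 and 3, 7.24 in F311 replicate 1, 7.22 in R3T replicate 2 and 6.93 in E0771 replicate 1. It did not pass the F-test (adjusted p = 0.310).

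Over the 528 pairs of a member and a model, 128 (24.2%) differed from the other 11 models, against 26.6% of all such pairs of any gene. Met-1 had the most. Of the 44 members, 16 (36.4%) were lower in Met-1, against 17.2% of all genes, and 3 were higher, Mmp16, Adamts3 and Adamts1, against 14.6%. The 16 were 9 MMP genes (Mmp12, Mmp13, Mmp11, Mmp10, Mmp28, Mmp9, Mmp19, Mmp14 and Mmp1a), 5 ADAMTS genes (Adamts14, Adamts6, Adamts4, Adamts7 and Adamts9) and 2 inhibitors, Timp1 and Timp2. Mmp1a was below the olfactory receptor mark in Met-1 and in each other model but E0771, so that its calls as lower, here and in M6, 6DT1, EMT-6, F311 and R3T, carry no level. All 16 calls were kept without the tumors rich in host tissue, and leaving out 1 tumor gave 11 to 17. Single Met-1 tumors decided 6 of these calls: without replicate 2 the adjusted p was 0.218 for Mmp13, 0.0508 for Mmp10, 0.0608 for Mmp9, 0.266 for Timp1 and 0.373 for Adamts4. Without replicate 1 it was 0.0865 for Mmp13, 0.0557 for Mmp10, 0.0762 for Mmp9, 0.0890 for Adamts4 and 0.103 for Adamts9, and without replicate 4 it was 0.0767 for Adamts9. The differences stayed near the full ones for Mmp10 (-1.21 without replicate 2, against -1.45), Mmp9 (-1.12, against -1.29) and Adamts9 (-0.41 without replicate 1, against -0.49). They shrank without replicate 2 for Mmp13 (-1.18, against -1.98) and Adamts4 (-0.34, against -0.73).

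E0771 had 11 lower members (25%, against 17.8% of all genes), among them Mmp9, Adamts6, Adamts12, Timp1, Timp3 and Adamts9, and 7 higher ones (against 19.8%), led by Adamts8, Mmp1a and Adamts14. The higher ones include Mmp1b, with signals below the olfactory receptor mark. Only 7 were lower without E0771 replicate 3, 17 once tumors rich in host tissue were left out, and 14 with both pieces rich in muscle left out as well. Replicate 3 is the piece of E0771 with the high muscle score. The count was 7 when each array was centred on its median. M6 had 11 lower members too (25%, against 17.7%), among them Adamts6, Adamts14 and Mmp25, and 2 higher ones, Timp3 and Mmp17 (against 18.9%). In M6 17 were lower when the tumors rich in host tissue were left out and 18 when both pieces rich in muscle were left out as well. Member calls over all 12 models rose in these settings too, from 128 to 177 and 186. The shares of all genes given here are those with all 48 tumors and the deposited values, so the changed counts have no such share beside them. HRM-1 had 8 lower members (18.2%, against 10.1%), led by Adamts5, Mmp2 and Mmp3, and 3 higher ones, Mmp9, Adamts14 and Mmp1b, the last with signals below the olfactory receptor mark (against 14.8%). Only 5 were lower without HRM-1 replicate 1, 3 or 4, and the calls of Mmp9 (adjusted p = 0.0697) and Mmp1b (0.0515) were lost without replicate 1. 6DT1 had 9 higher members (20.5%, against 15.6%) and 5 lower ones (against 19.9%). The count of higher members was 4 without replicate 2 or replicate 3 and 15 without replicate 1. When the tumors rich in host tissue were left out, 2 of the 9 higher calls were kept, Mmp28 and Timp3, and 0 of the 5 lower ones (Mmp13, Mmp9, Mmp25, Mmp1a and Adamts8). Among the lost calls Adamts17 then had a difference of 0.03, Adamts18 0.01, Adamts19 0.06, Adamts9 0.08, Mmp27 0.29 and Timp4 -0.0014. The fibroblast score was lowest in E0771 (-0.54) and HRM-1 (-0.53). Its part in these counts was not tested.

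The remaining models had fewer lower members. In TS/A-E1 7 members were higher (against 9.62% of all genes) and 0 lower (against 6.57%). The calls of Mmp9 (adjusted p = 0.0461) and Adamts14 (0.0434) passed narrowly. Both were lost after quantile normalization (0.0549 and 0.0555) and after centring of arrays (0.0536 and 0.0698), with differences near the full ones. Mmp1b, also among the 7, had signals below the olfactory receptor mark. In 4T1 7 were higher (against 11.8%), among them Mmp9, Adamts8, Adamts9 and Mmp14, and 1 lower (against 12.8%). MVT-1 also had 7 higher (against 11.6%), among them Mmp28, Adamts6 and Adamts7, and 1 lower, Mmp9 (against 8.97%). EMT-6 had 6 higher (against 11.3%), including Adamts5 and Adamts1, and 4 lower (against 12.6%). The 6 also include Mmp8 (0.60, adjusted p = 0.0225), whose model mean was below the olfactory receptor mark. Its call was lost without EMT-6 replicate 4 (0.26, adjusted p = 0.442). R3T had 4 higher, including Mmp13 (against 13.2%), and 3 lower (against 10%), and F311 4 higher, including Mmp28 and Timp2 (against 7.79%), and 3 lower (against 9.76%). D2A1 had 2 higher, including Mmp10 (against 13.4%), and 4 lower (against 14.1%). Outside 6DT1, leaving out the tumors rich in host tissue ended 5 calls: Mmp3 in F311 (0.87, adjusted p = 0.0834), Adamts16 in E0771 (-0.59, adjusted p = 0.0523), and Mmp1a in 4T1, F311 and R3T, where it was below the olfactory receptor mark.

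**Figure D4:**
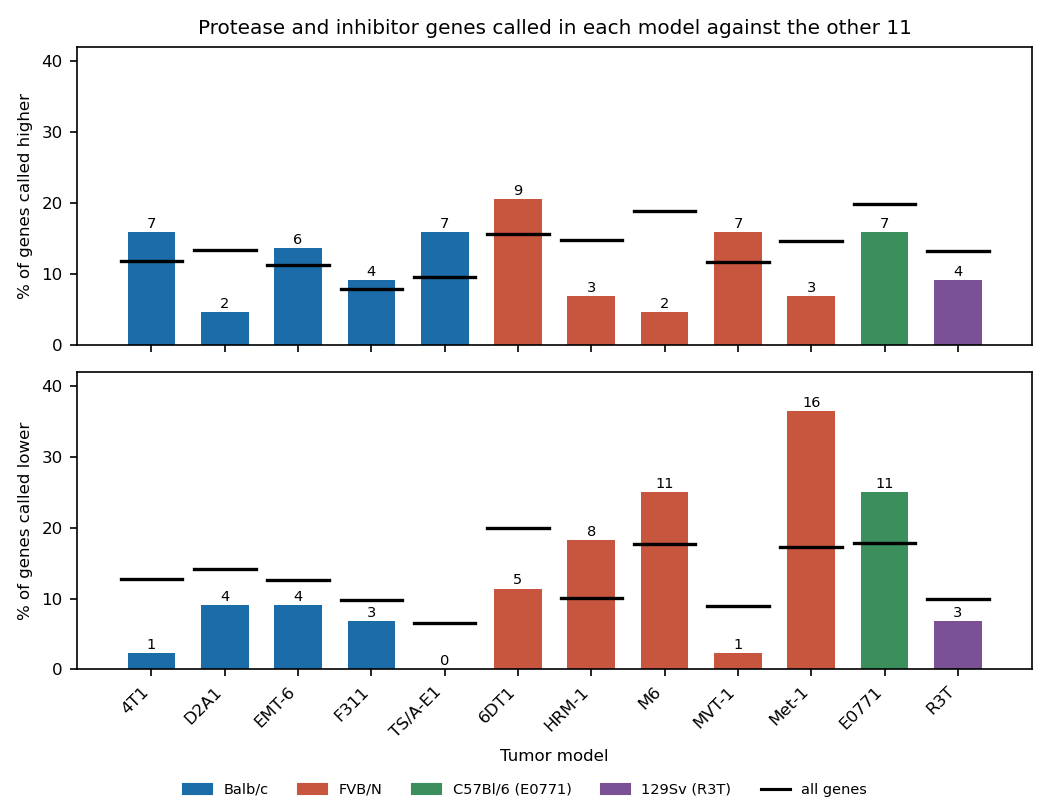
Bars give the percent of the 44 genes higher (upper panel) or lower (lower panel) in a model than in the other 11 at an adjusted p under 0.05 (limma), with the number of genes above each bar, and black lines give the percent of all 19938 genes. In the lower panel the bar of Met-1, 16 genes, stands farthest above its line.

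Strain was called for few genes of any kind. With the model as the replicate, 5 Balb/c models against 5 FVB/N models, limma called 0 of the 44 at an adjusted p under 0.05, against 0.191% of all genes. At an unadjusted p under 0.05 limma gave 2 members, Mmp9 and Mmp11, against 8.01% of all genes. Mmp9 was higher in Balb/c models by 1.66 (SE 0.60, adjusted p = 0.511) and Mmp11 by 0.71 (SE 0.26, adjusted p = 0.530). In none of the 44 were the 5 Balb/c means all on one side of the 5 FVB/N means, a separation seen for 1.93% of all genes. Strain and origin cannot be told apart in these 10 models, since all Balb/c lines are spontaneous and all FVB/N lines engineered.

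The tumors of a model differed in the amount of host tissue, and members were therefore set against scores of cell type genes within models, over the deviations of the 48 tumors from their model means. Of 11 relations 3 passed after adjustment over the 11. Mmp2 followed the fibroblast score closely (r = 0.92, rho = 0.92, permutation p = 1e-05 for both, adjusted 5.5e-05 and 0.00011, and r = 0.92 without 6DT1 replicate 1 and F311 replicate 1). Mmp3 followed it less closely (r = 0.62, rho = 0.65, permutation p = 0.00021 and 5e-05, adjusted 0.00077 and 0.000183, and 0.63 without the same tumors). Timp4 followed the adipocyte score (r = 0.83, rho = 0.71, permutation p = 1e-05 and 3e-05, adjusted 5.5e-05 and 0.000165, and 0.79 without E0771 replicate 1 and F311 replicate 1). The fibroblast list holds collagen genes that tumor cells can also use.

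The other 8 relations did not pass, and their r lay between -0.36 for Mmp13 and fibroblasts (rho = -0.13, adjusted permutation p = 0.177 and 0.682) and 0.34 for Mmp8 and neutrophils (rho = 0.24, adjusted permutation p = 0.104 and 0.272). Mmp9 gave r = -0.063 with neutrophils and 0.16 with macrophages, Mmp12 -0.0081 with macrophages, Mmp14 0.29 and Timp1 -0.20 with fibroblasts and Mmp7 -0.034 with luminal epithelium. The Mmp7 signal was below the olfactory receptor mark in most tumors. Some genes of the neutrophil list were also near or below that mark. Model means were 5.18 to 6.01 for Retnlg and 6.07 to 6.29 for Camp, but 7.41 to 9.10 for Csf3r. How far such low signals weaken the relations with the neutrophil score was not tested. In the 39 tumors left without those rich in host tissue, Mmp2 kept its relation (r = 0.94, rho = 0.92, permutation p = 1e-05, adjusted 0.00011). Mmp14 (r = 0.69, rho = 0.64, permutation p = 0.0004 and 0.00071, adjusted 0.0022 and 0.00391) and Timp1 (r = 0.55, rho = 0.45, permutation p = 0.00566 and 0.0220, adjusted 0.0208 and 0.0693) then passed with fibroblasts by r, whereas Mmp3 (r = 0.46, adjusted permutation p = 0.0709) and Timp4 with adipocytes (r = 0.44, adjusted permutation p = 0.0709) did not. Over the 12 model means Timp4 and adipocytes gave r = 0.78 (permutation p = 0.0005, adjusted 0.0055, rho = 0.70 with adjusted p = 0.0523) and Mmp3 and fibroblasts 0.75 (permutation p = 0.005, adjusted 0.0275, rho = 0.73 with adjusted p = 0.0523). Mmp2 and fibroblasts (r = 0.68, rho = 0.51, permutation p = 0.0140 and 0.0938, adjusted 0.0514 and 0.258) and Mmp12 and macrophages (r = 0.60, rho = 0.73, permutation p = 0.0417 and 0.00973, adjusted 0.115 and 0.0523) did not pass. The r of Mmp3 was 0.49 without E0771 and HRM-1, the models farthest from the median score, so it rested on them. For Timp4 only the 6DT1 mean (6.83, SD 1.78) was above the olfactory receptor mark. The means of the other models, 5.32 to 5.88, carry no order, and the relation without 6DT1 was not tested.

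**Figure D5:**
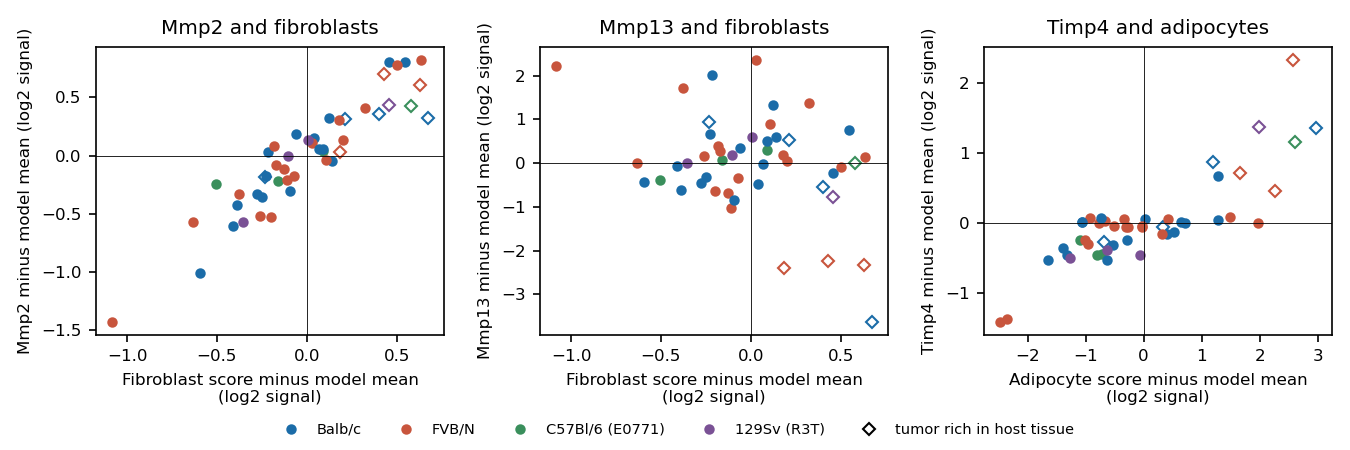
Each point is 1 of 48 tumors, plotted as its deviation from the mean of its model in a cell type score (horizontal axes, log2 signal) and in a gene (vertical axes, log2 signal), with tumors rich in host tissue as open diamonds. Mmp2 lies along a line with the fibroblast score (r = 0.92), Mmp13 does not (r = -0.36), and Timp4 rises with the adipocyte score mainly through the open diamonds.

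Genes that act on these proteases were counted by the F-test over the models, for which 70.4% of all genes passed. Of genes of activation and clearance 14 of 16 passed, of transcription factors of MMP genes 13 of 13, of ADAMTS-like proteins, which lack the protease domain, 6 of 7, and of matrix substrates 7 of 10. Plau, the urokinase that starts plasmin activation of pro-MMPs, ran from 12.54 ± 0.07 in HRM-1 to 8.52 ± 0.19 in Met-1 (adjusted p = 4.85e-14). Plat, the tissue-type activator, was also highest in HRM-1 (10.52 ± 0.17) and lowest in Met-1 (8.61 ± 0.36, SD, n = 4). Lrp1, the receptor that clears MMP and TIMP complexes, ran from 12.19 ± 0.05 in 6DT1 to 10.57 ± 0.37 in Met-1. Met-1 had the lowest mean for 6 of the 16 genes of activation and clearance and E0771 for 4, where 11.9% and 13.5% of all genes were lowest. Of the 6 in Met-1, Plg carries no order: its highest model mean, 5.96, was below the olfactory receptor mark. It did not pass the F-test (adjusted p = 0.846).

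Among the transcription factors, Etv1, an ETS factor, ran from 11.38 ± 0.15 in 4T1 to 7.42 ± 0.29 in M6 (adjusted p = 3.51e-14). The AP-1 subunits Jund and Jun ran from 10.69 ± 0.19 in M6 to 9.56 ± 0.06 in E0771 and from 11.36 ± 0.05 in E0771 to 10.27 ± 0.13 in R3T. Fosl1, an AP-1 subunit named after its values were seen, had the widest range of the list, from 11.27 ± 0.15 in E0771 to 6.95 ± 0.43 in Met-1 (SD, n = 4, adjusted p = 1.29e-07). Of the ADAMTS-like genes Adamtsl5 was highest in E0771 (9.66 ± 0.27), Papln in Met-1 (9.89 ± 0.92) and Thsd4 in MVT-1 (8.23 ± 0.18, SD, n = 4). Of the substrates, fibronectin (Fn1) ran from 13.28 ± 0.02 in 4T1 to 11.35 ± 0.65 in E0771, and the basement membrane collagens Col4a1 and Col4a2 were highest in 4T1 (9.88 ± 0.07 and 9.89 ± 0.06) and lowest in MVT-1 (8.72 ± 0.29 and 8.58 ± 0.32, SD, n = 4).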

How the data were processed

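Total RNA of 48 tumors was hybridised to mouse gene arrays, 1 per tumor. The deposited values are log2 signals per transcript cluster, normalized by the authors and their software and settings are not given in the sources read. Of 35556 clusters 21789 named 1 gene, 1621 several and 12146 none, and the first kind gave 19938 genes. No 2 arrays were identical. No column was left without a sample. Mmp15 and Adamts2 are not analysed here.

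Models were compared with limma 3.58.1 in R 4.3.3, by an F-test over 12 models and by 12 contrasts of a model minus the mean of the other 11, with Benjamini-Hochberg adjustment over all genes and a threshold of 0.05. Neighbors in the order of means were compared among the 66 pairwise contrasts. Strain was tested on model means, 5 against 5. Relations used 100000 permutations of the tumors within models (two-sided). Replicates are separate tumors of 1 line, so p-values do not cover other lines of a strain. Tests were checked on simulated data of 19938 genes with 200 changed: of log2 changes of 1 the F-test recovered 88.5%, the contrast of 1 model 94.5% and the strain test 86.5%, and of changes of 0.5 they recovered 60%, 83% and 58.5%. False calls at a change of 1 were 10 of 187, 9 of 198 and 21 of 194. The simulated noise was independent and normal and no other gene differed. Recovery is an average over genes of every spread, so it does not give the power for members that vary widely, such as Mmp9.

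Every member is named. Tumor values are given in full for Mmp9, Mmp3, Timp1, Mmp13, Mmp12 and Mmp10, and for 9 further members with the widest ranges they are given by the models that stand out and the range of the rest. Of each other list, up to 3 genes with the largest F were named. The members and lists were chosen with earlier results of these data known. Alternatives were quantile normalization, centring of arrays, averaging of clusters, a filter on the 30% dimmest genes, trended and robust priors, the replicate number as a block, the methods' tests, and leaving out tumors, models or the tumors rich in host tissue. The pair comparison on chromosome 9 was added after seeing the data. Python 3.11.15, scipy 1.17.1 and matplotlib 3.10.9 were used for relations and plots.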

Additional observations from a re-analysis of the deposited data

Results flagged for a closer look

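Of 180 groups of 4 tumors (15 members in 12 models), 12 had a highest or lowest tumor set apart from the other 3 by Dixon's 95% criterion, and chance gives about 1 in 20. F311 replicate 1, rich in host tissue, accounted for 5 of them: it was low for Mmp9 (7.78, nearest 10.81), Timp1 (10.62, nearest 11.86) and Mmp28 (8.27, nearest 9.87) and high for Adamts5 (10.37, nearest 8.55) and Adamts12 (10.09, nearest 9.29). E0771 replicate 1, also rich in host tissue, was high for Mmp28 (7.97, nearest 7.64) and low for Adamts14 (9.30, nearest 9.74). Met-1 replicate 2, of the same kind, was low for Adamts3 (8.42, nearest 9.54). Outside those tumors, HRM-1 replicate 1 was high for Mmp9 (11.16, nearest 10.81), E0771 replicate 4 for Timp1 (10.88, nearest 10.58), EMT-6 replicate 4 for Mmp13 (9.99, nearest 8.35) and TS/A-E1 replicate 1 for Mmp12 (11.14, nearest 10.36). The part of host tissue in these values was not tested.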

How the results depend on the processing

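Among the settings that kept all models, leaving out the tumors rich in host tissue moved the most results. It turned the sign of the differences of Mmp13 (0.23) and Timp4 (-0.0014) in 6DT1, and of the relations of Mmp9 with neutrophils (0.310), Mmp12 with macrophages (0.111), Mmp13 (0.309) and Timp1 (0.549) with fibroblasts, Mmp7 with luminal epithelium (0.047), and Mmp3 with Mmp13 (0.347), Mmp12 (0.296) and Mmp10 (0.485). It also gave 17 lower members in E0771 and 17 in M6, while member calls over all models rose from 128 to 177. With the 2 pieces rich in skeletal muscle left out as well, an alternative chosen after seeing the data, 18 were lower in M6 and 14 in E0771, and Mmp13 in 6DT1 had a difference of 0.25. Centring the arrays gave 7 in E0771; the cause was not tested. With 1 tumor left out, 32 to 35 members passed the F-test, members called in each model against the other models numbered 119 to 142, and strain called 0 throughout. Members higher in 6DT1 numbered 4 to 15, and those lower numbered 7 to 14 in E0771, 5 to 11 in HRM-1, 9 to 14 in M6 and 11 to 17 in Met-1. Without 1 replicate number, 3 to 5 of the cell type relations and 3 of the 6 pairs passed. The relations near 0 then ran from -0.153 to 0.111 for Mmp9 and neutrophils, -0.140 to 0.10 for Mmp12 and macrophages, -0.114 to 0.032 for Mmp7 and luminal epithelium and -0.089 to 0.0023 for Mmp3 and Mmp10. The replicate numbers did not pair the tumors: deviations of same-numbered tumors correlated at -0.655 to 0.563 with a mean of 0.0217, and 17 of 48 correlated best with their own number. With the replicate block 34 members passed the F-test and 125 pairs were called, with 10 higher in 6DT1 and 10 lower in E0771, 8 in HRM-1, 11 in M6 and 16 in Met-1, and strain called 0. The methods' one-way test passed 33 members, and their t-test on model means called 0 after adjustment. Signals near the olfactory receptor mark carry no order. The relation of Adamts2 with fibroblasts was not run.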
